A study of Mus musculus with 8 samples.

Results

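Krt7, Krt8, Krt18, Krt19, Krt20 and Krt23 are keratins of the mouse intestinal lining, and they were taken by symbol from the Ensembl identifiers in the count tables of wild-type small intestinal (SI) and colonic (COL) crypts. These 6 genes are 6 of the 45706 listed, and all 6 passed the filter on low counts that left 14491 genes for testing. RNA was sequenced from crypts that had been released with EDTA from 4 wild-type C57BL/6N mice, 2 female and 2 male, and both tissues of every mouse were sequenced, in 1 library each. Donor mice 1, 2, 3 and 5 gave replicates 1, 2, 3 and 4 (SI1 to SI4, COL1 to COL4), mice 1 and 5 being the females. No age stands in the labels, no library carries a transgene or treatment by its label, and in the study's protocol villi were scraped off the proximal SI while colon was held longer in a stronger EDTA solution, so tissue and isolation cannot be told apart.

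Keratins are the intermediate filament proteins of epithelia. A filament forms only when an acidic type I keratin pairs with a basic type II keratin, so every epithelial cell makes at least 1 of each, and a keratin without its partner is degraded. In the gut lining KRT8 is the main type II chain and KRT18, KRT19 and KRT20 are its type I partners, KRT20 being known from differentiated cells of villi and of the colonic surface. KRT7 is a second type II chain, best known from ducts and bladder, and KRT23 is a type I keratin with a restricted pattern. The type II genes and Krt18 lie on chromosome 15, the other type I genes on chromosome 11.

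On GRCm38, Krt8 lies at chr15:101996698-102004482 (minus strand) and Krt18, the type I gene in the type II cluster, at chr15:102028180-102032027 (plus strand), with 23.7 kb between them. Krt7 is at chr15:101411043-101430313 (plus strand). Krt20 (chr11:99428403-99438150), Krt23 (chr11:99477974-99493137) and Krt19 (chr11:100140810-100148665) are all on the minus strand. The sequence before the start is shown for Krt20, the member with the highest level in SI, and for Krt8 and Krt18, which make the basic filament pair. Sequences are from RefSeq on GRCm38.p6, 5′ to 3′ on the gene's strand, trimmed to the bases outside the annotated gene, with motif letters in capitals, and 5 of the 6 members had an entry. Motifs were searched on both strands as TATAAA (the TATA box), AATAAA (letters in the site of caudal-type homeobox factors), GGGCGG (a GC box) and CACCC (letters bound by Krüppel-like factors).
Krt20 chr11:99438154-99438403, minus strand: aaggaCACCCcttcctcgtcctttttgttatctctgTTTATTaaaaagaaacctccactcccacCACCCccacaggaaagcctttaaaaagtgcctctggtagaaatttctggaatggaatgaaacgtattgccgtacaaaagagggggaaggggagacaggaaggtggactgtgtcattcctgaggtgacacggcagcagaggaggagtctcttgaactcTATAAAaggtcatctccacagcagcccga
Krt8 chr15:102004483-102004592, minus strand: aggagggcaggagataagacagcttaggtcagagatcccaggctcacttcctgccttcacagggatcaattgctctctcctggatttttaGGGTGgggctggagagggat
Krt18 chr15:102027966-102028179, plus strand: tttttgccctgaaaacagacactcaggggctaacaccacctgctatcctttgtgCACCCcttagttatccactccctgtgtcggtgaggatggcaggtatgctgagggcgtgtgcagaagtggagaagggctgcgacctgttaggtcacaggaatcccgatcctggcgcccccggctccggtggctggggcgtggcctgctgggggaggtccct
The Krt20 stretch holds a TATAAA at bases 29 to 24 before the start, which 12.4% of 32851 promoter windows of 250 bases hold. It also holds an AATAAA, read on the other strand as TTTATT at bases 214 to 209 (18.1% of windows). CACCC, held by 52% of windows, stands in it at 2 places. In the Krt18 stretch CACCC stands at 1 place, and as GGGTG once in the Krt8 stretch. GGGCGG, held by 32.7% of windows, is in none of the 3 stretches. The Krt8 and Krt18 stretches are trimmed to 110 and 214 bases, so the shares, which are for 250 bases, apply to the Krt20 stretch and not to these. The motifs describe these letters only.

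Depth and library make-up bear on every value below. Libraries held 15969428 to 32908060 counts, and a count of 3, taken as the floor, equals 0.0628 to 0.186 CPM (counts scaled to a common library total). The share of counts on mitochondrial genes was low, at 4.83% to 7.35%, for replicates 1 and 4 of SI and replicates 3 and 4 of COL. It was high, at 22.7% to 50.8%, for the remaining 4 libraries, so that each tissue has 2 of each kind. CPM below are scaled by TMM (trimmed mean of M-values, factors of 0.727 to 0.798 in SI and 1.01 to 1.45 in COL), and on this scale the median log2 fold change over all genes was -0.09, against -0.82 when libraries were scaled by their totals alone. In the libraries labelled crypts, the summed CPM of 5 villus enterocyte genes was 25204 to 49758 in SI and 9.39 to 74.5 in COL, while 5 stem cell genes summed to 30.7 to 310.4 in SI and 39.0 to 54.4 in COL. Most of the stem cell sum in SI2 to SI4 was Olfm4 (161.0, 254.4 and 180.3 CPM). Lgr5 (0.634 to 11.2 CPM in SI, 11.5 to 16.1 in COL) and Ascl2 (0 to 1.57, 2.46 to 3.85) were lower in SI without overlap. Neither passed the edgeR test used below, and Smoc2 and Axin2 overlapped between tissues. The samples are bulk, so fewer cells of a kind and less RNA per cell cannot be told apart in any level given here.

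Krt20 was higher in SI crypts, Krt7 and Krt18 were higher in COL crypts, and Krt8, Krt19 and Krt23 did not pass the threshold. Fold changes are from edgeR's quasi-likelihood test over all 14491 genes, with Benjamini-Hochberg adjusted p-values and a threshold of 0.05. The 3 members called stand beside 28.4% of all genes tested, with 1 higher in SI (15.5% of all genes) and 2 higher in COL (12.9%). The SI and COL libraries did not overlap for the same 3 members, against 33.5% of all genes tested. With shares of this size over the whole table, 3 of 6 is no finding about keratins as a group, and the median of the 6 log2 fold changes was -0.86. Scaled by totals alone, 1 member was higher in SI and 4 in COL beside 40.7% of all genes called, and 1115 genes against 4788 of all genes were called in these directions, in place of 2253 and 1863.

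**Figure D1:**
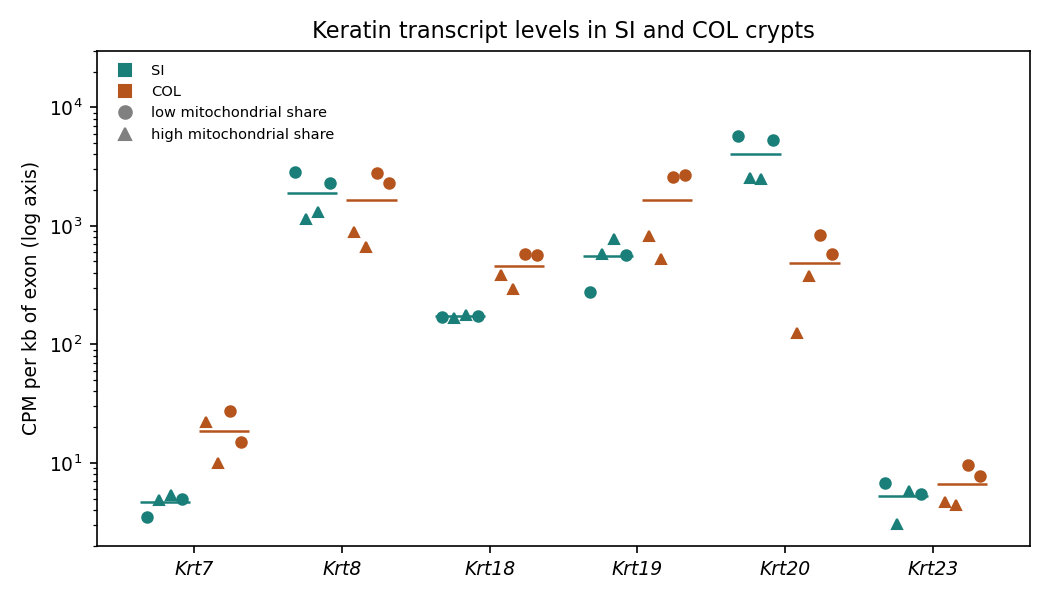
Level of each keratin in CPM per kb of exon (log axis) in the 4 SI and 4 COL libraries, with horizontal bars at the group means, circles for libraries of low mitochondrial share and triangles for those of high share. Krt20 stands at 2480 to 5769 in SI and 125.1 to 840.0 in COL, Krt18 and Krt7 are higher in every COL library, and the groups overlap for Krt8, Krt19 and Krt23.

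Krt8, the main type II chain of the gut lining, was among the most abundant transcripts of both tissues. It measured 5556, 2225, 2552 and 4518 CPM in SI1 to SI4 and 1727, 1296, 5454 and 4505 CPM in COL1 to COL4. High and low values occurred in both tissues and the groups overlapped widely. The means were 3713 ± 1592 and 3246 ± 2047 CPM (SD, n = 4 each), a log2 fold change of 0.19 (SE 0.60, 95% interval -1.13 to 1.52, edgeR adjusted p = 0.842; two-sided exact permutation p = 0.543). The interval spans a difference of over 2-fold in either direction, and the sign turned when libraries were scaled by totals alone (-0.61) and without SI1 (-0.05), COL1 (-0.01) or COL2 (-0.01). Among genes not encoded in mitochondria, Krt8 ranked 25 to 42 by counts in SI and 5 to 19 in COL. A share of 29.7% of its 50-base stretches also occurs in Krt8-ps or Gm36026, and part of its counts is uncertain for that reason. Gm36026 overlaps Krt8 by 271 bases on the opposite strand, and neither gene was found by symbol among the counted genes.

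Within each tissue Krt8 moved with the mitochondrial share. The 2 libraries of low share averaged 2.11 times those of high share in SI and 3.29 times in COL. Compared within one kind of library, SI and COL differed by 0.67 on the log2 scale at high share and by 0.02 at low share (2 against 2 libraries each). The part of RNA quality or cell make-up in this was not tested.

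Krt7, the second type II chain, was a minor transcript beside Krt8 in both tissues and higher in COL. By counts Krt7 ranked 3569 to 4842 among nuclear genes in SI and 487 to 1329 in COL. Its level was 24.5, 34.4, 37.7 and 34.6 CPM in SI1 to SI4 and 154.9, 69.99, 191.5 and 104.9 CPM in COL1 to COL4. Every COL library exceeded every SI library, and the SI libraries lay close together. The means were 32.8 ± 5.74 and 130.3 ± 53.7 CPM (SD, n = 4 each), 3.98-fold higher in COL (log2 fold change -1.99, SE 0.34, 95% interval -2.74 to -1.24, edgeR adjusted p = 0.00125). The two-sided exact permutation test gave p = 0.0286, the smallest that 70 assignments allow, and COL was higher in 4 of 4 mice. The difference was -1.53 among libraries of high mitochondrial share and -2.28 among those of low share. On the opposite strand, Gm671 overlaps Krt7 by 1269 bases, and it was not found by symbol among the counted genes. Since the strand setting of the counting was not stated, reads of the pair cannot be told apart.

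Krt18, the classical type I partner of Krt8, had the steadiest level of the 6 in SI. Its values were 246.4, 239.9, 254.8 and 249.6 CPM in SI1 to SI4 and 547.8, 420.2, 835.7 and 807.5 CPM in COL1 to COL4. All COL libraries lay above all SI libraries, and the highest SI library was only 1.06 times the lowest. The means were 247.7 ± 6.24 and 652.8 ± 202.1 CPM (SD, n = 4 each), 2.64-fold higher in COL (log2 fold change -1.40, SE 0.34, 95% interval -2.14 to -0.66, edgeR adjusted p = 0.00949; two-sided exact permutation p = 0.0286). COL exceeded SI in 4 of 4 mice. Unlike Krt8 and Krt20, Krt18 did not follow the mitochondrial share in SI (ratio of low-share to high-share libraries 1.00), while in COL the ratio was 1.70. The tissue difference was -0.96 at high and -1.73 at low share.

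Krt19, a type I keratin that is found in crypts and in ducts and lacks the tail of other keratins, had a higher mean in COL without passing the threshold. It measured 510.9, 1076, 1447 and 1057 CPM in SI1 to SI4. In COL1 to COL4 it measured 1518, 964.1, 4766 and 4994 CPM. COL3 and COL4 stood far above every other library, whereas COL1 and COL2 lay in or near the SI range. The means were 1023 ± 385.5 and 3060 ± 2115 CPM (SD, n = 4 each), with a log2 fold change of -1.58 (SE 0.62, 95% interval -2.94 to -0.23, edgeR adjusted p = 0.0775; two-sided exact permutation p = 0.171). COL was higher in 3 of 4 mice, mouse 2 being at 0.16 in the other direction.

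The difference in Krt19 depended on which libraries were compared. It was 0.04 on the log2 scale between SI2 and SI3 and COL1 and COL2, the libraries of high mitochondrial share, and -2.73 between SI1 and SI4 and COL3 and COL4. Low-share COL libraries held 3.93 times the level of high-share ones, but in SI the ratio was 0.62, with the lowest Krt19 in SI1. Without COL2, the library with the highest mitochondrial share, Krt19 passed the threshold (log2 fold change -1.85, edgeR adjusted p = 0.026), as it did with the mitochondrial share as a covariate (-1.43, adjusted p = 0.0395) and in DESeq2 (-1.62, adjusted p = 0.00738, where 35.3% of all genes were called).

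Krt20, the type I keratin of differentiated intestinal cells, was the most abundant of the 6 in SI and had the largest difference between tissues. Its level was 11117, 4856, 4778 and 10255 CPM in SI1 to SI4. In COL1 to COL4 it was 241.0, 732.6, 1619 and 1121 CPM. The lowest SI library was well above the highest COL library, and values within each tissue were themselves spread 2.33-fold in SI and 6.72-fold in COL. The means were 7752 ± 3407 and 928.2 ± 584.3 CPM (SD, n = 4 each), 8.35-fold higher in SI (log2 fold change 3.06, SE 0.69, 95% interval 1.54 to 4.58, edgeR adjusted p = 0.00653; two-sided exact permutation p = 0.0286). SI exceeded COL in 4 of 4 mice, by 5.53, 2.73, 1.56 and 3.19 on the log2 scale in mice 1, 2, 3 and 5. Krt20 ranked 7 to 16 among nuclear genes in SI and 33 to 274 in COL.

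Markers of differentiated cells followed Krt20 across libraries in part. In SI the summed level of Apoa4, Alpi, Fabp1, Anpep and Sis was 49758 CPM in SI1 and 40005 in SI4, against 25204 in SI2 and 27353 in SI3, and all 5 genes were higher in SI than in COL. Single genes differed from this order, Sis being lowest in SI1 (2049 CPM) and highest in SI3 (3374 CPM), and Alpi being higher in SI3 (842.6 CPM) than in SI4 (344.8 CPM). In COL the summed level of 6 colon surface genes (Car1, Car4, Aqp8, Slc26a3, Ceacam20 and Slc20a1) was 6421, 5004, 31961 and 17006 CPM in COL1 to COL4. Most of this sum was Car1, a carbonic anhydrase (5998, 2632, 30001 and 15636 CPM), while Aqp8, Slc26a3, Ceacam20 and Slc20a1 were each highest in COL2 (540.7, 466.7, 126.4 and 390.9 CPM), where Krt20 was not highest. Of those 6 genes 4 were higher in COL and 1, Ceacam20, in SI. SI1 and SI4 also held the larger sums of villus genes and the lower mitochondrial shares at once, and the 6 proliferation genes were lowest in SI1 (93.6 CPM, against 262.3 to 458.5 in the other SI libraries). The part of these cell populations in the Krt20 difference was not tested. Between libraries of like mitochondrial share the difference was 3.52 (high) and 2.99 (low).

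Krt23 was the least abundant member by counts, at 79 to 233 counts in SI and 111 to 578 in COL. It measured 10.6, 4.77, 9.02 and 8.61 CPM in SI1 to SI4 and 7.33, 6.90, 15.1 and 12.1 CPM in COL1 to COL4. The groups overlapped. The means of 8.24 ± 2.46 and 10.4 ± 3.94 CPM (SD, n = 4 each) gave a log2 fold change of -0.33 (SE 0.37, 95% interval -1.13 to 0.47, edgeR adjusted p = 0.540; two-sided exact permutation p = 0.457).

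**Figure D2:**
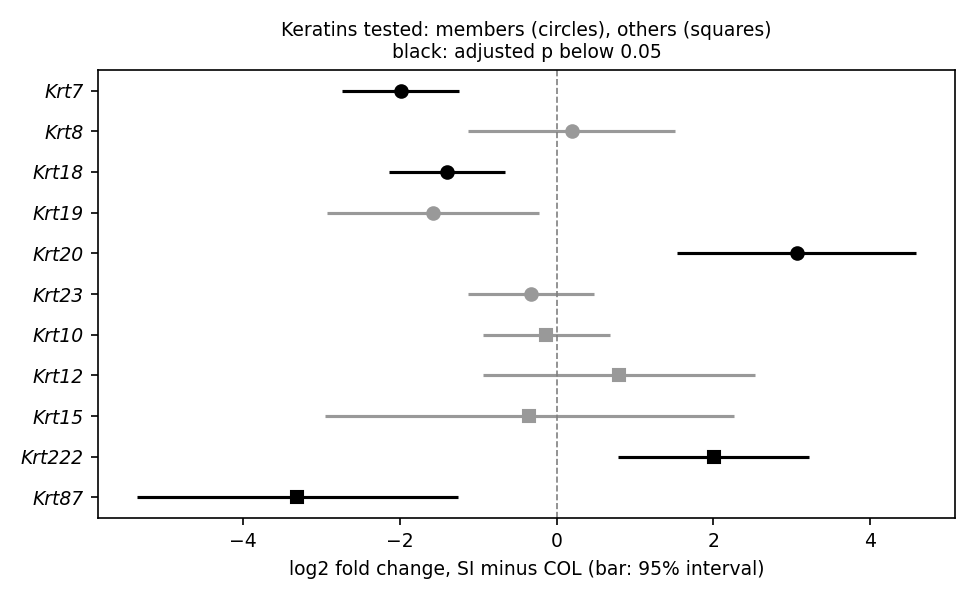
Log2 fold change of SI against COL (x axis) with its 95% interval for the 6 members (circles) and the 5 other keratins that passed the filter (squares), black where the edgeR adjusted p is below 0.05. Krt20 at 3.06 and Krt222 at 2.00 lie to the SI side, Krt7 at -1.99, Krt18 at -1.40 and Krt87 at -3.31 to the COL side, and the intervals of Krt8, Krt23, Krt10, Krt12 and Krt15 span 0. Krt19 did not pass (edgeR adjusted p = 0.0775), although its interval of -2.94 to -0.23 leaves out 0.

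Levels of different keratins can be set side by side only per length of transcript. In CPM per kb of exon, the order in SI was Krt20 (4023 ± 1768), Krt8 (1896 ± 813), Krt19 (551.3 ± 207.8), Krt18 (172.3 ± 4.35), Krt23 (5.265 ± 1.57) and Krt7 (4.65 ± 0.815; all SD, n = 4). Krt20 was above Krt8 in all 4 SI libraries although their ranges overlapped between libraries, and Krt23 and Krt7 changed places in 1 library. The ranges of Krt8, Krt19 and Krt18 were each clear of the next below. In COL the order was Krt8 (1658 ± 1045), Krt19 (1650 ± 1140), Krt20 (481.7 ± 303.2), Krt18 (454.3 ± 140.6), Krt7 (18.5 ± 7.61) and Krt23 (6.62 ± 2.52). Krt8 stood above Krt19, and Krt20 above Krt18, in 3 COL libraries each, with overlapping ranges. Krt19 was above Krt20 in all 4 although their ranges overlapped, while Krt18, Krt7 and Krt23 were separate in range. The 6 together summed to 4411 to 9064 CPM per kb in SI and 1869 to 6813 in COL, with overlap.

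The make-up of the keratin pool differed between tissues. Krt20 supplied 59.1% ± 5.53 of the summed level in SI and 11.9% ± 6.25 in COL. Krt19 supplied 9.85% ± 6.05 in SI and 36.5% ± 6.56 in COL, and Krt18 2.87% ± 1.03 and 12.6% ± 4.39. Each of these shares had ranges that did not overlap between SI and COL, which is a description of the values since the shares sum to a fixed total. Krt8, the common type II chain, held 28.0% ± 2.34 in SI and 38.3% ± 2.40 in COL (SD, n = 4). Krt7 and Krt23 stayed under 1% in every library on this length.

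**Figure D3:**
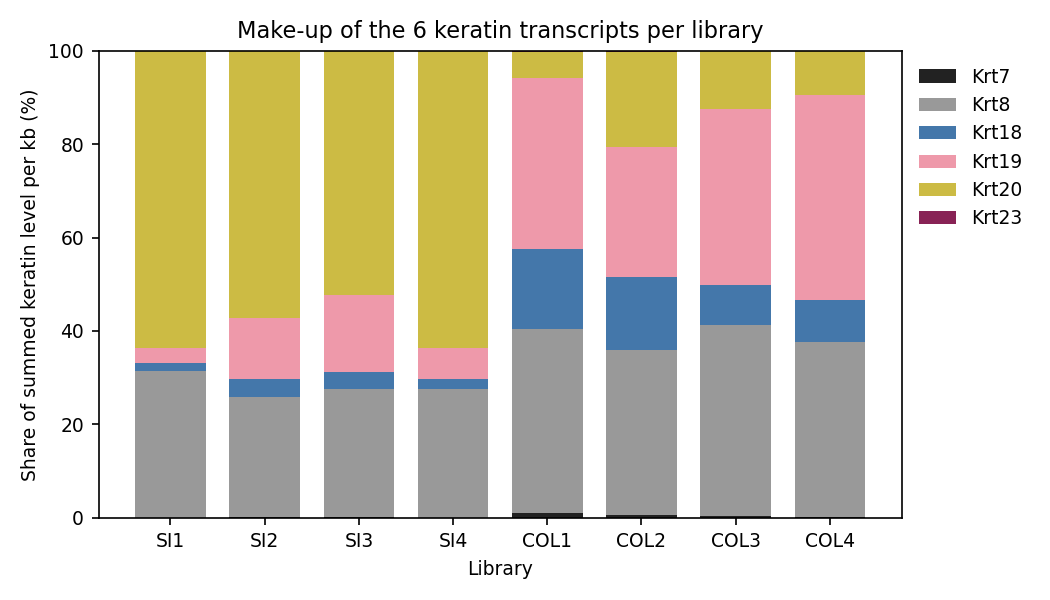
Share of each keratin in the summed level per kb of the 6 (y axis, %) in every library, stacked to 100%. Krt20 takes 52.2% to 63.7% in the SI libraries and 5.60% to 20.3% in the COL libraries, where Krt8, Krt19 and Krt18 take up most of the rest.

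Ratios within a library need no scaling between libraries and so do not depend on the TMM factors. Krt20 per Krt8 was 2.03, 2.22, 1.90 and 2.31 in SI1 to SI4, and 0.142, 0.574, 0.302 and 0.253 in COL1 to COL4. In SI the ratio was thus nearly level, although each of the 2 transcripts varied more than 2-fold between those libraries. Krt19 per Krt8 was 0.097, 0.510, 0.599 and 0.247 in SI and 0.927, 0.785, 0.922 and 1.17 in COL, so here the COL libraries were the closer set. Krt18 per Krt8 was 0.060 to 0.147 in SI and 0.209 to 0.442 in COL, and in both tissues the libraries of high mitochondrial share had the higher ratios. Krt19 per Krt18 did not separate the tissues (1.61 to 4.40 in SI, 1.78 to 4.79 in COL).

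Summed type I transcripts exceeded summed type II transcripts in every library. The ratio was 2.19, 2.86, 2.63 and 2.63 in SI1 to SI4 and 1.47, 1.78, 1.42 and 1.66 in COL1 to COL4, without overlap. With Krt20 left out, Krt18 and Krt19 together amounted to 0.157 to 0.735 of Krt8 in SI and to 1.13 to 1.41 of Krt8 in COL. In SI, that is, Krt8 transcripts outnumbered those of Krt18 and Krt19 combined in all 4 libraries, and in COL they did in none. These are ratios of RNA and were not measured for protein.

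**Figure D4:**
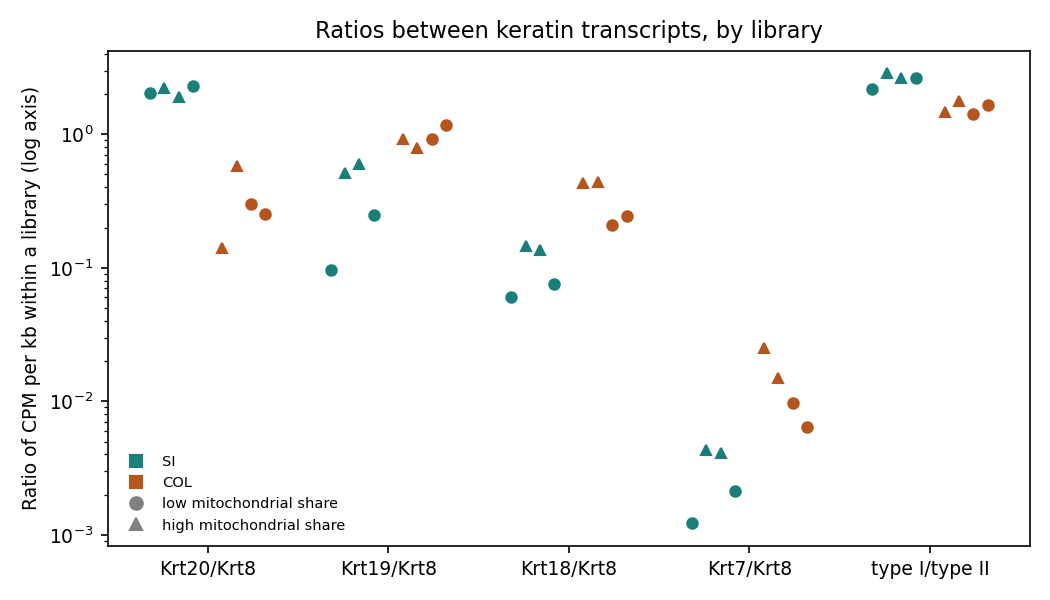
Ratio of levels per kb between keratins within each library (log axis), SI and COL side by side, circles for low and triangles for high mitochondrial share. Krt20 per Krt8 is 1.90 to 2.31 in SI and 0.142 to 0.574 in COL, and type I per type II is 2.19 to 2.86 in SI and 1.42 to 1.78 in COL.

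Across all 8 libraries the members did not move as one group. Pearson's r of log2 CPM was 0.93 for Krt7 and Krt18, 0.85 for Krt18 and Krt19 and 0.77 for Krt7 and Krt19. These 3 members had higher means in COL, as had Krt23, whose r was 0.40 with Krt7 and 0.57 with Krt18 and with Krt19. Krt20 ran against Krt7 (-0.83) and Krt18 (-0.72), and Krt8 was nearest to Krt23 (0.74) and Krt20 (0.55) and had little relation to its partner Krt18 (0.12). The 8 points share 2 tissues and the split in mitochondrial share, so these values describe the libraries and carry no test.

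**Figure D5:**
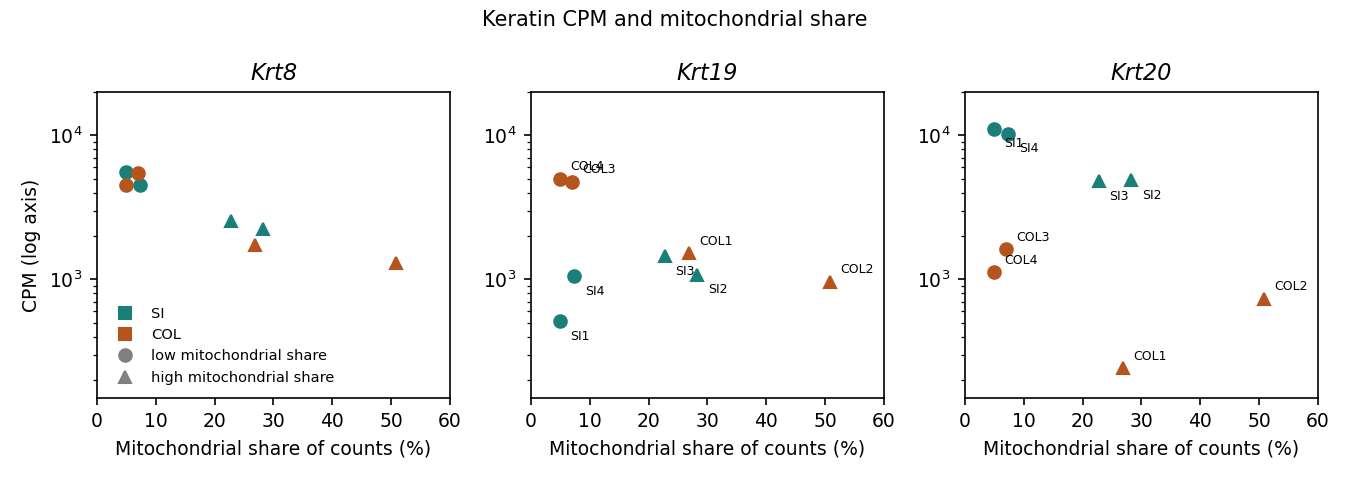
CPM (log axis) of Krt8, Krt19 and Krt20 against the mitochondrial share of counts (x axis, %) in the 8 libraries, SI and COL in separate colours. Krt8 is 4505 to 5556 in the 4 libraries of low share and 1296 to 2552 in those of high share in both tissues, Krt19 is highest in COL3 and COL4 (4766 and 4994), and Krt20 is above in SI at either share.

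Genes with the most similar profile over the 8 libraries were taken from 7802 genes by Pearson's r of log2 CPM. Nearest to Krt20 were Stat6, a transcription factor of interleukin signalling (0.996), Entpd8, an ectonucleotidase (0.996), and Cidec, a lipid droplet protein (0.995). Nearest to Krt8 were Nelfcd, a subunit of a transcription elongation factor (0.988), Map1lc3b of the autophagosome (0.987) and Tmem59 (0.986). Krt18 was nearest to Gnpnat1 of amino sugar synthesis (0.992), Aacs, an acetoacetyl-CoA synthetase (0.992), and Selenbp1 (0.989). For Krt19 the nearest were Parn, a poly(A) ribonuclease (0.981), and 2 genes of mitochondrial translation, Dap3 (0.978) and Tsfm (0.975). Krt7 was closest to Gm10076 (0.983), the ribosomal protein gene Rpl41 (0.975) and Gm10736 (0.974), and Krt23 to the cathepsin gene Ctsl (0.985), Cbr4 (0.964) and Frg1 (0.962). The lowest Spearman's rho among these 18 pairs was 0.83, and with so many genes ranked over 8 points a high r is the product of the search.

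The other keratins were nearly absent. Of 48 further keratin genes, 10 had no count in any library, 33 had counts but fell under the filter with at most 59 in any library, and 5 were tested, and the 6 members held at least 99.6% of all keratin counts in every library. Krt222, a keratin-like gene, passed the test as higher in SI, at 5.66, 5.86, 1.93 and 3.94 CPM in SI1 to SI4 against 0.704, 0.622, 1.98 and 0.984 CPM in COL1 to COL4 (log2 fold change 2.00, SE 0.55, edgeR adjusted p = 0.0186). In mouse 3 the 2 tissues were level, so the groups overlapped, and the call was lost when libraries were scaled by totals alone (adjusted p = 0.101) and without COL1 (adjusted p = 0.0594). Krt87, a type II hair keratin, was higher in COL, with 0, 6, 21 and 3 counts in SI1 to SI4 and 61, 55, 184 and 255 counts in COL1 to COL4 (log2 fold change -3.31, SE 0.93, edgeR adjusted p = 0.0201, and adjusted p = 0.0538 without SI4). Its annotated end lies 724 bases from that of Krt7, on the opposite strand, and Krt7 was also higher in COL. Whether reads from beyond the end of Krt7 add to Krt87 was not tested.

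Krt10, Krt12 and Krt15, keratins of stratified epithelium or cornea, did not pass (log2 fold changes -0.13, 0.79 and -0.35). Chosen after their values were seen, the hair keratins Krt83 (9, 17, 23 and 28 counts in COL1 to COL4) and Krt36 (16, 1, 9 and 39 counts) had 0 counts in all SI libraries, which allows up to 0.136 to 0.181 CPM there. Both fell under the filter.

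Markers of squamous epithelium and of mesothelium were at low levels. No list was made for ducts or bladder, so epithelia of those kinds were not checked. The 8 squamous markers summed to 0.181 to 4.59 CPM in SI and to 0.684 to 1.87 in COL, Krt5 was at 0 in all 8 libraries, and 1 of the 8, Krt15, was tested and not called. The 5 mesothelial markers summed to 0.0906 to 1.03 CPM in SI and to 0 to 2.30 in COL, and none passed the filter. Stroma and smooth muscle lists reached at most 6.77 and 8.70 CPM, with none of the 4 and 2 genes tested being called. Cdh1, the epithelial cadherin, averaged 648.1 and 651.5 CPM in SI and COL, and of the 5 general epithelial genes 2, Vil1 and Cldn7, were higher in SI.

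Among cells of the crypt, 3 of 6 goblet genes were higher in COL (Muc2, Agr2 and Spink4), the list summing to 2356 to 7450 CPM among SI libraries and 12062 to 23646 among COL libraries. Most of the COL sum was Muc2 (7718 to 16197 CPM). The 3 goblet genes not called went both ways (log2 fold changes 0.86 for Tff3, 0.66 for Fcgbp and -0.79 for Clca1). Paneth genes were higher in SI in 4 of 5 cases (555.8 to 3864 against 17.9 to 82.9 CPM), as was Olfm4 alone among 5 stem cell genes. No gene was called by edgeR among 6 proliferation, 5 tested tuft and 5 enteroendocrine genes. Apart from crypt epithelial cells, 2 of 4 leukocyte genes tested, Cd3e and Cd8a, were higher in SI. Of 4 pancreatic acinar genes Cela1, the one tested, was higher in COL, while Cpa1, Prss2 and Pnlip had at most 7 counts in a library. Called markers in these and the earlier lists stand beside 15.5% of all genes called higher in SI and 12.9% higher in COL. The part of these cells in the keratin differences was not tested.

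Proteins that anchor, fold, modify or cut keratins were taken as 18 genes, of which 17 were in the files and tested. By edgeR 3 rose in SI, 1 rose in COL and 13 did not pass (log2 fold changes -1.68 to 1.05), with a median of 0.31. These counts stand beside 15.5% of all genes called higher in SI, 12.9% higher in COL and 28.4% in either direction, so 4 of 17 is no finding about the partners as a group. Casp6, the caspase that cuts KRT18 in dying cells, measured 586.4, 359.6, 465.3 and 511.3 CPM in SI1 to SI4 and 30.6, 23.4, 71.0 and 68.9 CPM in COL1 to COL4. The groups were far apart (log2 fold change 3.31, SE 0.44, edgeR adjusted p = 0.000234). Plk1, a mitotic kinase, was higher in COL (4.67 to 26.9 against 54.9 to 91.5 CPM; log2 fold change -2.004, SE 0.44, edgeR adjusted p = 0.00576).

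Smaller differences favoured SI for Dnajb6, a chaperone of KRT18 (log2 fold change 0.85, SE 0.27, edgeR adjusted p = 0.0366), and Ywhah, a 14-3-3 protein of the kind that binds phosphorylated KRT18 (0.79, SE 0.25, adjusted p = 0.0344). Neither held when libraries were scaled by totals alone (edgeR adjusted p = 0.815 and 0.971), and Ywhah also missed with the donor mouse as a block (adjusted p = 0.0563; 28.1% of all genes called), where Fbf1, a keratin-binding centrosomal protein, passed instead (-1.75, adjusted p = 0.0433). Totals alone gave 1 partner higher in SI and 5 higher in COL. With 1 library left out, Dnajb6 passed in 2 of 8 fits and Ywhah in 1 of 8, the one without SI2. The linkers Plec (0.75), Dsp (0.31), Jup (0.53) and Pkp3 (0.74) did not pass.

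Filaments of other classes were few. Of 14 genes 6 were tested and 1, Lmna of the nuclear lamina, was higher in COL, as were 12.9% of all genes. The count of 1 in 6 is thus no finding about these genes as a group. Lmna was at 107.2, 51.5, 33.8 and 58.8 CPM in SI1 to SI4 and 164.0, 166.4, 219.1 and 159.6 CPM in COL1 to COL4 (log2 fold change -1.50, SE 0.36, edgeR adjusted p = 0.00911). Vim, the filament of mesenchyme, ranged over 2.79 to 5.56 CPM among SI libraries and 3.14 to 7.18 among COL libraries. The 8 untested genes, Des of muscle and Nes and Gfap of nerve tissue among them, had at most 35 counts in a library.

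Sex, given by the labels, was set against tissue in 1 further fit. Outside that fit, in mean log2(CPM + 0.1), Krt20 differed by 4.36 in the females and by 2.15 in the males, and Krt8 by 0.84 and -0.16. For none of the members did the interaction of tissue and sex pass (edgeR adjusted p of 0.925 to 1.00), nor did it for any of 14491 genes, 761 of which had an unadjusted p under 0.05. With 2 mice per sex the interaction in the fit, males minus females, was -1.94 (SE 1.33) for Krt20 and -1.19 (SE 1.29) for Krt8.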

How the data were processed

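RNA of freshly isolated crypts from 4 wild-type mice was sequenced as 8 libraries, which came as 2 tables of raw counts per Ensembl gene that the authors deposited. The submitters' processing notes name Trimmomatic 0.36 and STAR 2.5.2b. These notes list builds mm9 and mm10, of which the study's methods name mm10, and the counter's strand setting was not given in the sources used here. The 6 keratins and all gene lists were chosen with earlier results of these data known. Counts of SI and COL were compared in edgeR 4.0.16 (R 4.3.3; filterByExpr, TMM, glmQLFit and glmQLFTest) over 14491 genes with Benjamini-Hochberg adjustment, without a block, since the study named none. The study's methods used limma for this comparison. Symbols, positions and exon lengths are from GENCODE vM21 (45143 of 45706 identifiers matched). Levels per kb used the union of exons. Exact permutation tests compared mean log2(CPM + 0.1) over all 70 assignments. The procedure was tested on simulated data.

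The mouse that gave both libraries of a replicate number was named in the labels, so the numbers pair the samples. Deviations from the group means correlated at -0.24, 0.39, -0.08 and 0.33 within mice (mean 0.10), against a mean of -0.03 between mice. The positive values are from mice 2 and 5, whose SI and COL libraries were alike in mitochondrial share. The negative values are from mice 1 and 3, whose libraries were not. Replicates differed beyond sampling noise (chi-square per gene of 93.5 or more). Separate mice per replicate are stated, so the spread holds differences between animals. Isolation and library make-up are part of the same spread and cannot be told apart from the animal. Genes named are the 6 members, every other keratin tested, the called partners and filament genes, the marker lists (1 villus marker is not reported here), and the 3 genes with the highest Pearson's r to each member among those with a mean log2 CPM of at least 3. A few further keratins and uncalled partners were named after their values were seen. Alternatives were totals alone, DESeq2 1.42.0 and its size factors, limma-voom (limma 3.58.1), the donor mouse as block, no filter or 10 counts in every library, the mitochondrial share as covariate, removal of genes over 1% of counts, an offset of 1 CPM, the longest transcript as length, leaving out each library and, chosen after seeing the data, leaving out COL2 and SI1 together.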

Additional observations from a re-analysis of the deposited data

Results flagged for a closer look

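No keratin of the 6 had a library that stood apart from the rest of its tissue by Dixon's criterion, which compares the gap to the nearest library with the whole range. Of 68 sets of 4 libraries checked, 7 met it, and chance alone flags about 1 in 20. In SI2 these were Krt10 at 3.99 CPM (the other SI libraries at 3.08 to 3.16), the cornified envelope linker Ppl at 12.2 CPM (others 3.03 to 4.16) and Fbf1 at 2.78 CPM (others 0.589 to 0.870). In COL2, the library with the highest mitochondrial share, the desmosomal Dsp stood at 390.2 CPM (others 196.5 to 216.8) and Evpl at 18.6 CPM (others 7.25 to 8.64). Nefm, a neurofilament gene, was at 0.362 CPM in SI1 (others 1.15 to 1.24), and Lmna was at 219.1 CPM in COL3 (others 159.6 to 166.4).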

How the results depend on the processing

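Krt7, Krt18 and Krt20 kept their direction and passed under all 19 alternatives. Leaving out 1 library gave log2 fold changes of -2.19 to -1.74 (Krt7), -1.54 to -1.25 (Krt18), 2.75 to 3.48 (Krt20), -0.05 to 0.57 (Krt8), -1.85 to -1.24 (Krt19) and -0.46 to -0.09 (Krt23). Krt8 was -0.61 with totals alone and -0.28 without COL2 and SI1. Krt19 passed with totals alone (-2.37, adjusted p = 0.0201), in DESeq2 (-1.62) and with the mitochondrial share as covariate (-1.43), its adjusted p ranging from 0.00738 to 0.190 over all alternatives. Krt23 passed with totals alone (-1.11, adjusted p = 0.0439). Depth limits mainly the rare keratins. Krt23, the member with the fewest counts, had an SE of 0.37, near those of Krt7 and Krt18 (0.34 each). Krt8 (0.60) and Krt19 (0.62) had larger SEs at far higher counts.

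With the donor mouse as replicate block, Krt20 had an edgeR adjusted p of 0.0244, and apart from Ywhah and Fbf1 no other call among the members, other keratins, partners and other filament genes changed in that fit. Krt15 was 0.38 with the block and 0.038 with limma-voom and the block.

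Members called numbered 3 to 4 without 1 library (20.7% to 29.6% of all genes called) and 5 with totals alone (40.7%). Other keratins called were 2 (2 to 3 without 1 library), 1 with totals alone, 5 without the filter (Krt36, Krt78 and Krt83 joining), 1 with 10 counts in every library and 1 without COL2 and SI1. Partners called were 4, and 2 to 5 without 1 library (2 without SI1, SI3, SI4, COL1 or COL2), 7 in DESeq2, with the covariate and with limma-voom and the block, 2 without genes over 1% (Dnajb6 and Ywhah lost) and 2 without COL2 and SI1. Other filament genes called were 3 with totals alone. Of all genes, 35.3% were called in DESeq2, 37.7% with the covariate and 32.5% with limma-voom and the block. The share was 13.7% without the filter, 30.1% with 10 counts in every library, 29.1% without genes over 1% and 27.3% without COL2 and SI1.

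Signs that turned, none of them called, were Dsp -0.38, Jup -0.21, Pkp3 -0.0045, Hspa8 -0.43, Prkce -0.40 and Nefm -0.63 with totals alone. Krt15 turned to 0.058 in limma-voom, 0.45 with the covariate and 0.16 without COL2 and SI1, where Ppl was 0.20 and Tchp 0.21 (Tchp from -1.19 to -0.08 without 1 library). Without 1 library Krt15 ranged from -0.90 to 0.71, Ppl from -0.69 to 0.21, Nefm from -0.12 to 0.44 and Lmnb2 from -0.17 to 0.13. By the longest transcript the Krt7 share was 0.135% in SI and 0.869% in COL, and the Krt8 share in COL 35.8%.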
